A study of Rattus norvegicus with 50 samples.

Results

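The genes described here build, crosslink and remodel the extracellular matrix of the lung, or control that process through transforming growth factor beta (TGF-beta). They form a list of 52 gene symbols, of which 51 were named on the array. All 51 passed the filter on dim probes and were tested among 25208 genes, and Hspg2 was the symbol not named there. They were read in the accessory lung lobe of 50 male F344 rats, an inbred laboratory strain, which were 12 weeks old and breathed through the nose only. Exposed rats inhaled a titanium dioxide (TiO2) nanoparticle aerosol of type P25 at 10 mg/m3 during 4 weeks, in daily sessions of 6 h on 5 days of each week, and control rats inhaled filtered air. Lungs were sampled at the end of that period (D0) or after a recovery of 3 (D3), 28 (D28), 90 (D90) or 180 days (D180), with 5 rats of each kind a day. Each rat had its own one-colour array, so each value below is 1 rat, and later controls were also older rats.

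Collagens give the lung its tensile strength, and elastic fibres, an elastin core on a scaffold of microfibrils, give it recoil. Lysyl oxidases join both kinds of protein by crosslinks outside the cell, while proteoglycans and glycoproteins space the fibres and tie cells to them. TGF-beta is secreted in a latent form bound to the matrix, and once released it is known as a main inducer of collagen synthesis in lung fibrosis.

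Levels are log2 processed signals, quantile normalized between arrays, so that a difference of 1 is a doubling. Levels of different genes were not compared, because each probe binds with its own strength. A gene was called over-expressed or under-expressed at an adjusted p under 0.05 in limma (Benjamini-Hochberg over all genes tested) together with a change of at least 1.5-fold. The median signal of an array lay between 198 and 473 fluorescence units, and between 68.7% and 84.5% of its probes were well above background by the mark of the extraction software. That mark was present on all 50 arrays for 48 of the 51 matrix genes, on 49 for Loxl4 and Thbs2, and on 41 for Thbs1. The number of arrays limits the precision. Days up to D28 were spread over 4 slides and later days over another 3, with 1 exception, exposed replicate 1 of D3, which lay on a slide of later days. The tissue was lung by its markers. The surfactant genes Sftpc, Sftpb, Sftpa1 and Sftpd of alveolar type 2 cells were well above background on all 50 arrays, as were 7 of the 9 tested fibroblast markers, with Thy1 on 3 arrays and Fap on 9. Skeletal muscle markers (7 tested) stood apart in 2 exposed rats, with a mean log2 level of 11.11 in replicate 2 of D28 and 9.61 in replicate 4 of D180 against 5.39 to 6.36 in the other 48 rats. The animal number in the label of exposed replicate 2 of D180 lies among those of control rats, and its labelled group was kept. Values without these rats are given for the genes called at D28 and D180. Because whole lobes were measured, fewer cells of a type and less RNA per cell cannot be told apart.

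Each probe is a strand of 60 bases, and several members on which the results turn are shown by a probe to make clear which stretch of the messenger was read. Sequences are those in the array files, written 5′ to 3′, with positions on rat build rn4 as the file headers give them. The capitals in the collagen probes mark the longest run of letters that both share, 10 bases.

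Col1a1, second probe, chr10:83637956-83638015, plus strand: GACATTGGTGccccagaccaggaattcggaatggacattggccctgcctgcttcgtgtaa
Col3a1, chr9:44317465-44317524, plus strand: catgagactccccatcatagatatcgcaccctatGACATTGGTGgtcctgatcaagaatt
Eln, second probe, chr12:23067308-23067449, plus strand: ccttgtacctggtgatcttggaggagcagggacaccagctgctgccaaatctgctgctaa
Loxl1, chr8:62088318-62088377, minus strand: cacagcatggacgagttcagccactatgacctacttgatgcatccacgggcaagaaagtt
Cthrc1, chr7:74637736-74637795, plus strand: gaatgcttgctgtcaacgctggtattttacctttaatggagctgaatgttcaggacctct
Thbs2, chr1:53589151-53589210, minus strand: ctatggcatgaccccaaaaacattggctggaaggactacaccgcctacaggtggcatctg
Fbln2, chr4:125440452-125440511, plus strand: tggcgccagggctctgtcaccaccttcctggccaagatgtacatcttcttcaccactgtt

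The Eln probe shown spans 142 bases of the genome for 60 bases of messenger. For Eln and Col1a1 the brighter of 2 probes was used in the tests, and the probe shown is the other one. In all, 37 members had 1 probe, 13 had 2 and 1 had 3.

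The first comparison followed the matrix genes over time in control rats, which inhaled no particles. Rats of later days were also older and further from their last session, and these cannot be told apart. Col1a1, Loxl1 and Tnc were over-expressed at all 4 later days, Col3a1 up to D90 and Eln from D28 on, and no member was called lower. The comparisons with D0 all share the same control rats of D0, which also enter the exposure comparison of D0, so they are not independent. At D3, 7 of 51 members were called, all higher, beside 2.33% of all genes (1.52% higher, 0.813% lower). For D28 it was 11, all higher, beside 2.49% of all genes (1.54% higher, 0.944% lower). The 7 called for D90, all higher, stood beside 5.45% (3.25% higher, 2.21% lower), and the 5 of D180, all higher, beside 5.51% (2.99% higher, 2.52% lower). Counted by the adjusted p alone, 20 members were higher and 1 was lower at D28, beside 7.08% of all genes (3.67% and 3.41%), and 11 and 3 at D3, beside 7.36% (3.93% and 3.43%).

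Eln, which encodes elastin itself, had the largest increase. Its log2 level in the control rats at D0 was 10.97, 11.55, 11.39, 11.13 and 11.09. At D3 it was 11.66, 11.96, 10.97, 11.08 and 11.76, which overlapped D0. At D28 it was 13.82, 14.00, 13.87, 13.84 and 13.50, and the lowest of these rats lay above the highest of either earlier day. Levels stayed apart from D0 afterwards, at 13.26, 13.11, 13.46, 13.24 and 13.19 at D90 and 13.10, 13.02, 13.10, 12.94 and 13.15 at D180. The change against D0 was 2.58 (SE 0.20, 5.97-fold, adjusted p = 5.99e-13 in limma) for D28, 2.03 for D90 and 1.84 for D180. The second probe of Eln, shown above, gave 1.85, 1.86 and 1.87 at the same days, and −0.39 at D3 where the used probe gave 0.26.

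Col1a1, the alpha 1 chain of type I collagen, was already over-expressed at D3. Its log2 level in control rats was 10.88, 11.18, 11.17, 10.81 and 11.43 at D0 and 12.36, 12.70, 11.99, 11.76 and 12.08 at D3. At D28 it was 12.96, 13.19, 13.06, 13.46 and 13.18, so that D0, D3 and D28 formed 3 ranges with no overlap. The change against D0 was 1.08 (SE 0.14, adjusted p = 6.00e-07 in limma) at D3, 2.08 (4.22-fold, adjusted p = 2.92e-14) at D28, 1.62 at D90 and 1.19 at D180. Its second probe gave smaller changes in the same direction, 0.64, 1.13, 1.19 and 0.88.

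Col3a1, the chain of type III collagen that forms fibrils together with type I, rose by less. It averaged 13.24 ± 0.17 (SD, n = 5) at D0, 14.12 ± 0.15 at D3 and 14.51 ± 0.12 at D28, with changes of 0.88 (adjusted p = 4.65e-09 in limma) and 1.27 (adjusted p = 2.48e-13). The other fibril genes did not follow in the same measure. Col1a2, the partner chain of type I collagen, changed by 0.47 at D3 and 0.66 at D28 without passing the adjusted test, and Col5a1 and Col5a2 each changed by 0.34 at D28 and passed it below 1.5-fold. Among the crosslinking enzymes Loxl1, which is known for its part in elastic fibre assembly, was over-expressed at all 4 later days, at 0.85, 1.38, 1.36 and 1.14. All 4 crosslinking enzymes passed the adjusted p at D28, and Lox itself changed by 0.50.

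**Figure D1:**
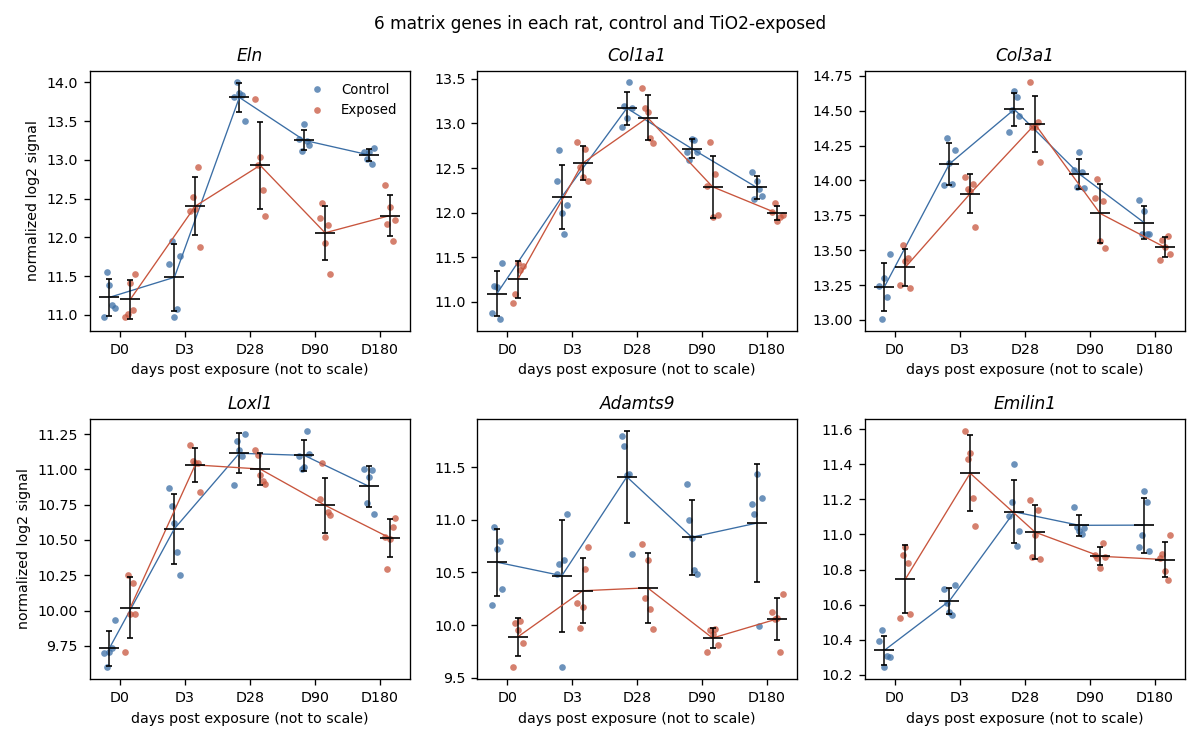
Log2 signal (vertical axis) of 6 matrix genes in each of the 50 rats, by day after the end of exposure (horizontal axis), with control and TiO2-exposed rats in separate colours, points for rats and black bars for group means ± SD. In control rats Eln moved from a mean of 11.23 at D0 to 13.80 at D28, and exposed rats averaged 12.40 against 11.48 at D3 and 12.06 against 13.25 at D90.

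Glycoproteins and proteoglycans of provisional matrix were also among the early calls. Vcan, the large proteoglycan versican, was 1.04 higher at D3 (SE 0.17, adjusted p = 2.15e-05 in limma) and 0.84 higher at D28, and was not called later, at 0.26 and −0.06. Tnc, the adhesion-modulating glycoprotein tenascin C, was over-expressed at all 4 later days, at 0.75, 0.84, 0.89 and 0.64. Cthrc1, a secreted protein induced in matrix-producing fibroblasts, was over-expressed at D3 (0.68) and D28 (0.66), and Col15a1, a collagen beside basement membranes, at D3 (0.87) and D28 (0.83). Emilin1, an elastic fibre glycoprotein that can hold back TGF-beta maturation, was over-expressed from D28 on, at 0.79, 0.71 and 0.71. Fbn1, the main microfibril protein, was called at D28 only (0.61), Postn, or periostin, at D90 only (0.65), and the protease gene Adamts9 at D28 only (0.81). The call of Adamts9 at D28 was lost without control replicates 1 or 5 of D0, or 1 or 2 of D28, taken out one at a time (0.71 to 0.75, adjusted p 0.0536 to 0.0709 in limma). Fbn1 fell under 1.5-fold without replicate 1 of D0, or 3 or 4 of D28 (0.57 to 0.58), and Postn without replicate 4 of D90 (0.57). Tnc at D180 fell under 1.5-fold without replicate 1 of D180 (0.53).

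Of the 9 basement membrane genes only Col15a1 was called in controls. Their median change was 0.07 at D28, and Col4a1, the main chain of type IV collagen, changed by 0.23. The laminin chains Lama4 and Lamb1 passed the adjusted p on at least 1 later day, below 1.5-fold. At D3 both were lower than at D0 on 4 of 4 slides, by −0.48 to −0.20 and −0.32 to −0.08. Of the TGF-beta genes Tgfb1 lay within 0.13 of D0 at each later day. Tgfb3 changed by −0.56 at D90 and −0.52 at D180, and Ctgf, a matricellular target of TGF-beta, by −0.40 and −0.57, all past the adjusted p but below 1.5-fold. Tgfb2 passed at D3 (−0.44), D28 (−0.31) and D180 (−0.55), but at D28 its other probes gave 0.71 and −0.02. Between D180 and D90 no member was called, beside 0.0198% of all genes (0.00397% higher, 0.0159% lower), none passed the adjusted p in limma, and the median change was −0.07. With slide as a fixed or random block 1 member was called there, Thbs1 (−0.74, adjusted p = 0.0459 and 0.0425 in limma), or thrombospondin 1, which was lower at D180 on 3 of 3 slides (−0.80 to −0.69). It is named after its value was seen.

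D28 and D0 shared slides, and on the 4 slides with control rats of both days Eln differed by 2.27 to 2.73 and Col1a1 by 1.78 to 2.25. D90 and D180 cannot be told apart from their slides when set against D0. Circadian genes moved with these changes as well. Of 11 clock genes tested, 2 were called higher and 6 lower in control rats at D28 against D0, with a median change of −1.82. Dbp, a clock-driven transcription factor, averaged 15.31 at D0 and 15.31 at D3, then 10.80 at D28, 10.88 at D90 and 10.80 at D180, and Arntl, of the opposite phase, averaged 7.68, 8.06, 10.64, 10.78 and 10.86. At D3 Cry1 (−0.99) and Per2 (−0.92) were called lower and Npas2 (0.62) higher, and Dbp was not called. The part of the clock genes in the matrix changes was not tested. Of 9 fibroblast markers tested, none was called higher at D28 and Inmt was called lower (−1.17), and at D3 Inmt (−1.26) and Pdgfra (−0.68) were called lower. Vascular endothelial markers had 2 of 8 called lower at D3, Cldn5 (−0.62) and Tek (−0.60). Smooth muscle markers had a median of −0.48 at D3, with 1 of 8 called lower, Myocd (−1.08). Their median was −0.34 at D28, with none called. Cardiac muscle markers had medians of 0.36 at D28, 0.34 at D90 and 0.48 at D180, with none of 9 called at the first 2 of these days and 4 called higher at D180, Myh7 (0.87), Myh6 (0.73), Myl7 (0.64) and Tnnt2 (0.62). The part of these cells in the matrix changes was not tested.

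**Figure D2:**
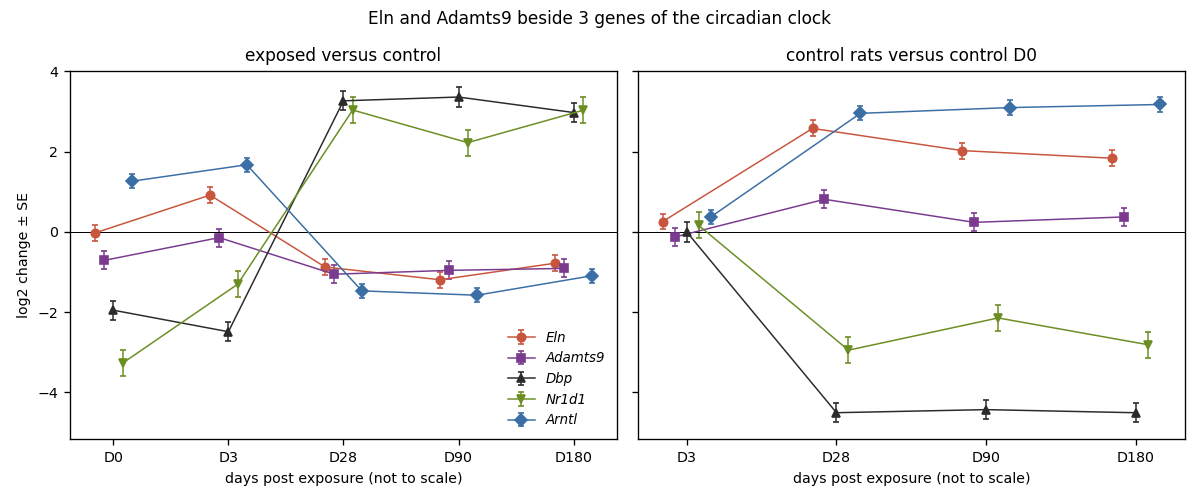
Log2 change with its standard error (vertical axis) of Eln, Adamts9 and the clock genes Dbp, Nr1d1 and Arntl by day (horizontal axis), for exposed against control rats and for control rats against D0. In control rats Eln lay 2.58 above D0 at D28 where Dbp changed by −4.51, and in exposed rats at D28 Eln changed by −0.88 against controls where Dbp changed by 3.27.

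The second comparison asked what TiO2 added to this at each day. At D0, 5 members were called, 2 higher and 3 lower, beside 4.28% of all genes (2.77% higher, 1.51% lower). Cthrc1 and Vcan were over-expressed, and Mfap5, Fbln2 and Adamts9 were under-expressed. By the adjusted p alone, 3 members were higher and 22 lower, beside 6.93% of all genes higher and 6.58% lower. The groups did not overlap for 2 members higher and 12 lower, beside 8.53% of all genes (4.76% and 3.77%). The median change was −0.26 over the 51 members and −0.01 over all genes.

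Cthrc1 had the largest increase at D0. Its log2 level was 8.46, 8.43, 8.51, 8.37 and 8.56 in control rats and 9.27, 9.42, 9.77, 9.52 and 9.73 in exposed rats, with all exposed rats above all controls. The change was 1.08 (SE 0.10, 2.11-fold, adjusted p = 5.81e-11 in limma). Vcan was 7.03, 6.86, 7.34, 6.74 and 6.72 in controls and 7.22, 7.64, 7.76, 7.66 and 7.94 in exposed rats, of which 4 lay above every control. Its change was 0.70 (SE 0.17, adjusted p = 0.00201), its second probe gave 0.86, and with normexp background correction the used probe fell to 0.47, under 1.5-fold.

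The genes called lower were 2 of elastic fibres and 1 protease. Mfap5, a microfibril glycoprotein, was 12.99, 12.94, 12.95, 13.04 and 13.02 in controls and 12.37, 12.41, 12.11, 12.49 and 12.19 in exposed rats. All exposed rats lay below all controls, and the change was −0.67 (SE 0.07, adjusted p = 4.02e-10 in limma). Fbln2, a fibulin of elastic fibres and vessel walls, was 8.29, 7.98, 7.93, 8.32 and 8.29 in controls and 7.85, 7.66, 6.98, 7.45 and 7.31 in exposed rats, again without overlap. Its change was −0.71 (SE 0.15, adjusted p = 0.000641), and under 1.5-fold with normexp correction (−0.52) or in the series matrix (−0.55). Adamts9, a secreted protease that cleaves versican, was 10.19, 10.93, 10.72, 10.80 and 10.34 in controls and 9.60, 10.02, 9.96, 10.04 and 9.83 in exposed rats, also without overlap. Its change was −0.71 (SE 0.23, adjusted p = 0.0272), and the call was lost without control replicate 2, 3 or 4, or exposed replicate 1 or 5 (−0.70 to −0.63, adjusted p 0.0520 to 0.0865).

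Smaller decreases ran through the basement membrane and the beaded collagens at D0. Of 9 basement membrane genes 7 passed the adjusted p, all lower, with a median change of −0.34, the largest being Col4a2 (−0.56, adjusted p = 0.000411 in limma) and the laminin chain Lama4 (−0.40). Col4a1 changed by −0.37 (adjusted p = 0.00101). Of 5 other interstitial collagens 3 were lower, namely the type VI chains Col6a1 (−0.34) and Col6a2 (−0.45), which form beaded filaments, and Col14a1 (−0.35). Of 8 elastic fibre genes 4 were lower and Emilin1 was higher (0.40), the lower ones beside Mfap5 and Fbln2 being Fbln5 (−0.45), needed for elastic fibre assembly, and Mfap4 (−0.37). The fibril collagens gave 1 in 5, Col5a1 (−0.33), while Col1a1 (0.16) and Col3a1 (0.14) did not pass the test. Of the TGF-beta genes Tgfb2 (−0.43) and Tgfb3 (−0.55) were lower and Tgfb1 was not (0.02). Tgfb2 has 3 probes, and at D0 the other 2 gave 0.13 and −0.44. Tnc (−0.50), Sparc (−0.26), Dcn (−0.34) and the smooth muscle actin gene Acta2 (−0.46) were also lower, and no crosslinking enzyme passed.

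Markers of other cells moved at D0 too. Smooth muscle markers had a median change of −0.56 with 2 of 8 called lower, Actg2 (−0.89) and Cnn1 (−0.71), and their mean level per rat ran from 9.83 to 10.07 in controls and from 9.20 to 9.62 in exposed rats. Vascular endothelial markers had a median of −0.40 with 2 of 8 called lower, Cldn5 (−0.87) and Tek (−0.59), and ran from 12.72 to 12.87 and from 12.26 to 12.45. Neutrophil markers had 3 of 8 called higher, and fibroblast markers none of 9 in either direction, with a median of −0.22. Dbp changed by −1.95 in exposed rats. The part of these in the matrix decreases was not tested.

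**Figure D3:**
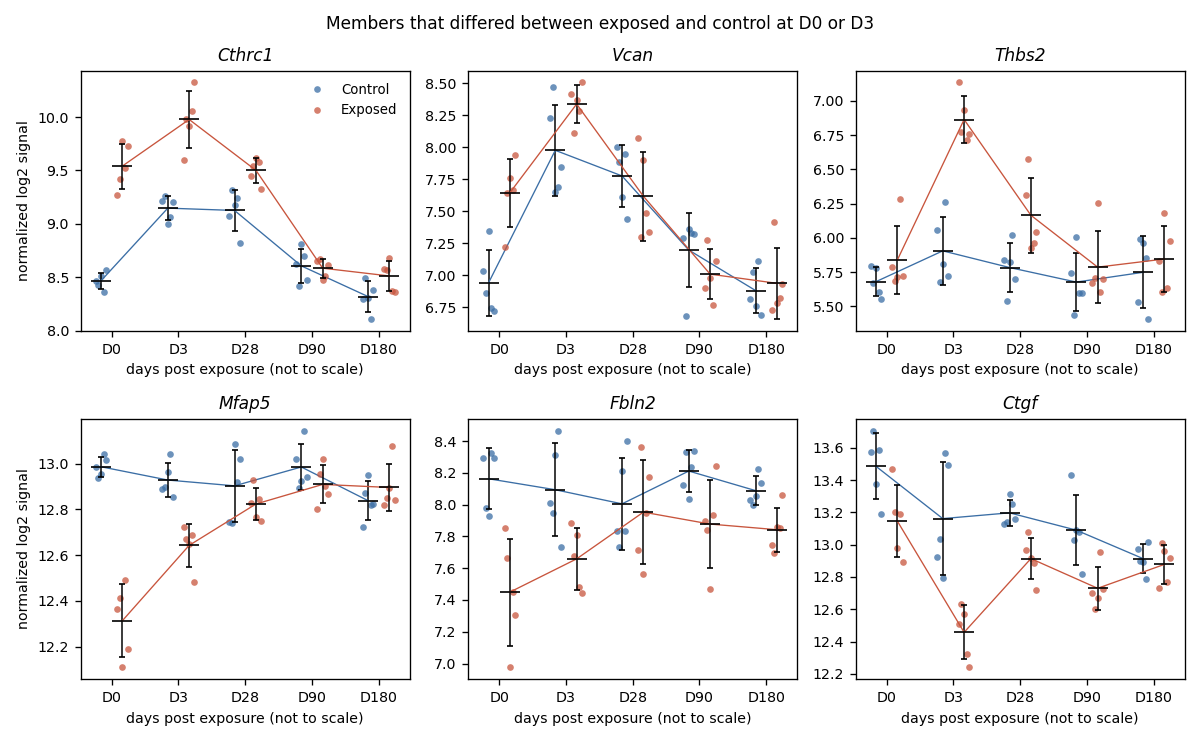
Log2 signal (vertical axis) of Cthrc1, Vcan, Thbs2, Mfap5, Fbln2 and Ctgf in each rat by day (horizontal axis), control and exposed rats in separate colours, points for rats and black bars for group means ± SD. Cthrc1 was higher in all exposed rats than in all controls at D0, D3 and D28, and Thbs2 at D3.

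At D3, 7 members were called, 4 higher and 3 lower, beside 3.48% of all genes (1.98% higher, 1.51% lower). Thbs2, Eln, Cthrc1 and Emilin1 were over-expressed, and Ctgf, Tgfb3 and Col4a3 were under-expressed. By the adjusted p alone 5 were higher and 11 lower, beside 10.4% of all genes (4.89% and 5.53%), and the groups did not overlap for 3 higher and 9 lower, beside 6.78% (3.35% and 3.42%).

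Thbs2, the matricellular glycoprotein thrombospondin 2, stood apart at this day. Its log2 level was 6.06, 5.68, 5.81, 6.26 and 5.72 in controls and 7.13, 6.77, 6.93, 6.72 and 6.76 in exposed rats, with no overlap. The change was 0.96 (SE 0.14, 1.94-fold, adjusted p = 3.62e-06 in limma), and 0.51 with normexp correction, where it fell under 1.5-fold. Eln was 11.66, 11.96, 10.97, 11.08 and 11.76 in controls and 12.33, 12.52, 12.37, 12.91 and 11.87 in exposed rats, of which 4 lay above every control. Its change was 0.92 (SE 0.20, adjusted p = 0.00106), its second probe gave 0.61, and within slides the difference ran from 0.02 to 1.55 on 4 slides. Fitted on the arrays of D3 alone, the changes of Eln (0.92, adjusted p = 0.0724 in limma), Ctgf (−0.70, adjusted p = 0.0501) and Col4a3 (−0.60, adjusted p = 0.0822) were the same in size and were not called.

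Cthrc1 and Emilin1 rose again without overlap. Cthrc1 was 9.21, 9.26, 9.0, 9.06 and 9.20 in controls and 9.60, 9.99, 9.92, 10.06 and 10.33 in exposed rats, a change of 0.83 (adjusted p = 6.55e-08 in limma). Emilin1 was 10.69, 10.61, 10.56, 10.54 and 10.71 in controls and 11.59, 11.43, 11.46, 11.21 and 11.05 in exposed rats, a change of 0.73 (adjusted p = 6.55e-08), and its second probe gave 0.74. Loxl1 passed the adjusted p at 0.45, at the same day. Of the other 6 elastic fibre genes Mfap5 (−0.29) and Fbln5 (−0.26, adjusted p = 0.0497) passed it as lower, and Fbn1 (−0.06), Fbln1 (−0.20), Fbln2 (−0.44) and Mfap4 (−0.16) did not pass.

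The genes called lower at D3 belonged to TGF-beta and the basement membrane. Ctgf was 12.92, 13.03, 12.79, 13.57 and 13.49 in controls and 12.51, 12.64, 12.57, 12.33 and 12.24 in exposed rats, with no overlap and a change of −0.70 (SE 0.12, adjusted p = 3.30e-05 in limma). Tgfb3, one of 3 TGF-beta ligand genes listed, was 9.59, 9.62, 9.19, 9.24 and 9.58 in controls and 8.65, 8.74, 8.76, 9.0 and 9.05 in exposed rats. Its change of −0.61 (adjusted p = 2.09e-05) lay just past 1.5-fold and fell under it without control replicate 1, 2 or 5 or exposed replicate 1 or 2 (−0.58 to −0.56). It also lay under 1.5-fold with slide as a fixed (−0.54) or random block (−0.58), with normexp correction (−0.55) and in the series matrix (−0.54), with the adjusted p passed in each. Col4a3, an alveolar basement membrane chain, was 9.05, 9.16, 8.80, 9.05 and 9.70 in controls and 8.64, 8.27, 8.53, 8.74 and 8.55 in exposed rats. Its change was −0.60 (adjusted p = 0.000359), and −0.47 without control replicate 5 and −0.53 without exposed replicate 2. Alveolar type 1 markers had a median of −0.52 at D3 with 1 of 6 called lower, mesothelial markers had 3 of 7 called lower, neutrophil markers had 3 of 8 called higher, and their part was not tested.

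Of 5 other interstitial collagens 4 passed the adjusted p at D3, all lower, led by Col14a1 (−0.53, adjusted p = 3.26e-06 in limma), and the small proteoglycan Fmod changed by −0.44. No fibril collagen passed. Col1a1 was 0.38 higher (adjusted p = 0.0932) and Col1a2 changed by −0.54 without passing, so the 2 chains of type I collagen lay on opposite sides of 0. Lox changed by 0.31, Fn1 (fibronectin) by −0.10, Dcn (decorin) by −0.31, Acta2 by −0.18 and Tgfb1 by 0.20, none past the adjusted p.

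From D28 on, 2 members were called at each day, Eln and Adamts9, both lower in exposed rats. These 2 stood beside 1.33% of all genes at D28 (0.861% higher, 0.468% lower), 0.381% at D90 (0.246% higher, 0.135% lower) and 0.325% at D180 (0.246% higher, 0.0793% lower). The comparison at each day had its own control rats.

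Eln in exposed rats was 13.78, 12.94, 13.04, 12.61 and 12.28 at D28, of which 4 lay below every control. At D90 it was 12.25, 12.44, 11.93, 12.15 and 11.52, and at D180 12.68, 12.17, 12.39, 11.95 and 12.22, all below the controls of their day given above. The D28 change was −0.88 (SE 0.20, adjusted p = 0.00538 in limma), that of D90 −1.19 (2.29-fold, adjusted p = 0.000245) and that of D180 −0.78 (adjusted p = 0.0414). The second probe gave larger differences, −1.24, −1.54 and −1.33. Within slides Eln was lower in exposed rats on 3 of 3 slides for each late day, with changes of −1.26 to −0.51 (D28), −1.31 to −0.80 (D90) and −1.04 to −0.55 (D180). The group means were not below those of D0. The exposed rats averaged 11.20, 12.40, 12.93, 12.06 and 12.28 from D0 to D180, and these means were 1.20, 1.73, 0.86 and 1.08 above exposed D0 at the 4 later days, which was not tested.

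Adamts9 in controls was 11.80, 11.70, 11.43, 11.44 and 10.68 at D28 and 10.78, 10.26, 10.62, 10.15 and 9.97 in exposed rats. At D90 it was 11.34, 11, 10.83, 10.52 and 10.48 against 9.75, 9.96, 9.91, 9.96 and 9.81, with no overlap. At D180 it was 11.15, 11.06, 11.44, 9.99 and 11.21 against 10.13, 10.06, 10.07, 9.75 and 10.30, where control replicate 4 lay below 4 of the exposed rats. The change was −1.06 (adjusted p = 0.00269 in limma), −0.96 (adjusted p = 0.0192) and −0.91 (adjusted p = 0.0329).

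The 2 calls at D180 had adjusted p values near the limit and were lost when most of the rats were left out one at a time, with changes that stayed negative. Eln lost its call when any control replicate or exposed replicate 2, 3, 4 or 5 was left out (−0.81 to −0.70, adjusted p 0.0572 to 0.138 in limma). Adamts9 lost it without control replicate 1, 2, 3 or 5 or exposed replicate 1, 2, 3 or 4 (−0.93 to −0.79, adjusted p 0.0657 to 0.150), and at D90 without control replicate 1 or 2 or exposed replicate 5 (adjusted p 0.0548 to 0.109). Without exposed replicate 2 of D180, the rat with the animal number among the controls, Eln changed by −0.75 (adjusted p = 0.121) and Adamts9 by −0.91 (adjusted p = 0.0792). Without exposed replicate 4 of D180, with its skeletal muscle markers, the changes were −0.70 (adjusted p = 0.138) and −0.83 (adjusted p = 0.109), so that no member was called at D180 when either rat was left out. Without exposed replicate 2 of D28 both genes stayed called at that day, at −0.88 (adjusted p = 0.0126) and −1.03 (adjusted p = 0.00898). Fitted on the arrays of D28 alone, the changes of Eln (−0.88, adjusted p = 0.204) and Adamts9 (−1.06, adjusted p = 0.0975) were the same in size and were not called.

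Clock genes differed between exposed and control rats at the same days. Dbp was higher in exposed rats by 3.27, 3.36 and 2.97 from D28 to D180, while its change at D0 and D3 was −1.95 and −2.49. Arntl changed by −1.47, −1.58 and −1.09, and by 1.26 and 1.67 at D0 and D3. Of 11 clock genes, 6 were called higher and 4 lower for D28, 6 and 3 for D90, and 5 and 3 for D180. Eln thus differed in the direction of Arntl at D3, D28, D90 and D180 and against that of Dbp, and at D0, where both clock genes differed, Eln changed by −0.03. Adamts9 was called lower at D0, where Dbp was lower, and at the 3 late days, where it was higher. The part of the clock in either gene was not tested.

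Few other members passed the adjusted p from D28 on. At D28 Cthrc1 was 0.38 higher (adjusted p = 0.0248 in limma) with no overlap, and Col12a1 (−0.45) and Col4a3 (−0.48) were lower. In all 5 members passed there, beside 3.88% of all genes (2.44% higher, 1.44% lower). For D90 and D180 none but Eln and Adamts9 did, beside 1.05% (0.69% higher, 0.357% lower) and 0.893% (0.635% higher, 0.258% lower). Groups without overlap were 1 higher and 5 lower at D28 (2.23% and 1.57% of all genes, together 3.8%), 0 and 5 for D90 (2.2% and 1.63%, together 3.82%) and 0 and 8 for D180 (2.77% and 1.46%, together 4.22%), the 8 at D180 including Col1a1 (−0.29), Col3a1 (−0.18), Loxl1 (−0.36) and Tnc (−0.48). Those of D28 and D180 include exposed replicate 2 of D28 and exposed replicates 2 and 4 of D180, and were not repeated without them. The highest values at D28 beside Cthrc1 were Thbs2 (0.38) and Tgfb1 (0.37), at D90 Col8a1 (0.15) and Tgfb3 (0.12), and at D180 Loxl4 (0.21) and Cthrc1 (0.19), and except for Cthrc1 at D28 none of these passed.

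**Figure D4:**
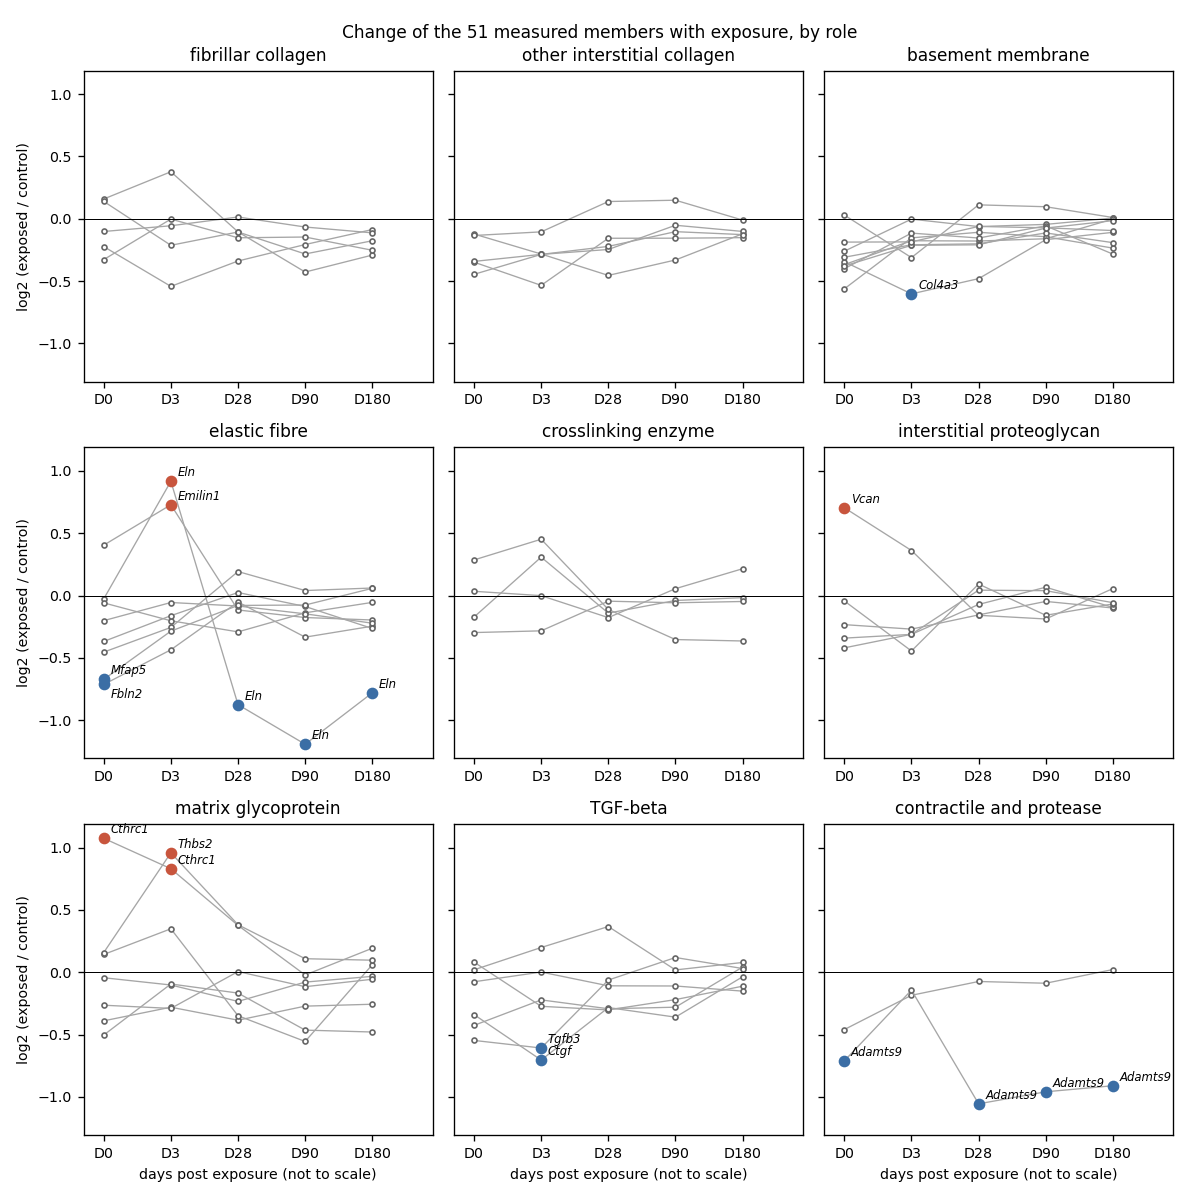
Log2 change of each of the 51 genes, exposed against control (vertical axis), at each of the 5 days (horizontal axis), in a panel for each role, with a line for each gene and called genes as large named points. Most points lie below 0 at D0, where the median is −0.26, and Eln changes from called higher at D3 to called lower from D28 on.

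Small decreases recurred over the days. The median change of the 51 members was −0.26, −0.19, −0.12, −0.11 and −0.09 from D0 to D180, against medians between −0.01 and 0.00 over all genes. Of the members 45.1% were lower in exposed rats at all 5 days, against 10.1% of all genes, and 27.5% at 4 days, against 17.6%. The members were chosen with earlier results known, and all genes include many dim probes, so these shares describe and do not test. Tgfb1 and Thbs2 were lower at none. Averaged over the 5 days, 3 members were higher by the adjusted p, Cthrc1 (0.49), Thbs2 (0.34) and Emilin1 (0.13), and 31 were lower, beside 19.7% of all genes (9.96% higher, 9.77% lower). With the 1.5-fold limit 1 was called, Adamts9 (−0.76, SE 0.10, adjusted p = 1.34e-07 in limma), beside 1.4% of all genes (1.09% higher, 0.309% lower). Of 9 basement membrane genes 7 were lower in this mean (median −0.18), as were 6 of 8 elastic fibre genes, 4 of 5 other interstitial collagens, 3 of 5 fibril collagens and 4 of 6 TGF-beta genes, and no crosslinking enzyme passed. Col4a1 changed by −0.18, Col3a1 by −0.13, Acta2 by −0.16 and Dcn by −0.15, all past the adjusted p, while Col1a1 (−0.06), Lox (−0.01), Fn1 (−0.10) and Tgfb1 (0.14) did not pass. Vascular endothelial markers had a median of −0.26 and smooth muscle markers of −0.22 in the same mean, and their part was not tested.

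**Figure D5:**
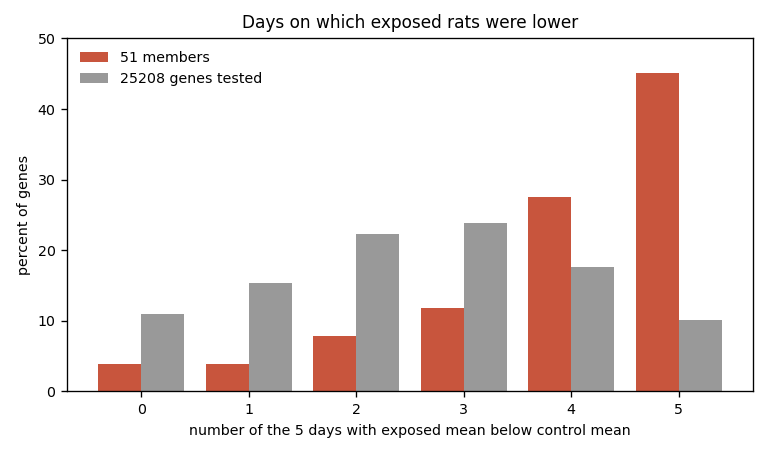
Percent of genes (vertical axis) that were lower in exposed than in control rats on 0 to 5 of the 5 days (horizontal axis), for the 51 matrix genes and for all 25208 genes tested. At 5 days the bars stand at 45.1% and 10.1%.

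The third comparison tested whether the exposure effect at a later day differed from that at D0. All of these contrasts share the rats of D0. At D3 the effect on Thbs2 was larger by 0.80 (SE 0.20, adjusted p = 0.0356 in limma), the only member called, beside 0.678% of all genes (0.238% higher, 0.44% lower). That call was lost in 12 of the 20 fits that left out 1 rat, namely control replicates 1, 2 and 3 and exposed replicates 1, 2, 3 and 5 of D0, and control replicates 2, 3 and 5 and exposed replicates 1 and 3 of D3 (0.73 to 0.80, adjusted p 0.0505 to 0.0917).

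For D28, 4 members were called, beside 1.61% of all genes (0.547% higher, 1.06% lower). For D90 it was 6, beside 2.17% (0.678% higher, 1.5% lower), and for D180 4, beside 2.24% (0.904% higher, 1.34% lower). The increase of Cthrc1 was smaller at each, with differences of −0.70, −1.10 and −0.88 (adjusted p = 0.00213, 6.34e-07 and 5.03e-05 in limma). The decrease of Mfap5 was smaller at each, with differences of 0.59, 0.60 and 0.73. Vcan differed at D28 (−0.86) and D90 (−0.89), Fbln5 at D28 (0.65), Tgfb3 at D90 (0.67), Eln at D90 (−1.17, adjusted p = 0.00762), Loxl1 at D90 (−0.64) and D180 (−0.65), and Emilin1 at D180 (−0.60). Those of Mfap5 at D28 and D90 fell under 1.5-fold without control replicate 4 or exposed replicate 3 or 5 of D0 (at D28 also without control 1 or 2 or exposed 2, at D90 without control 2 or 3 or exposed 3), at 0.54 to 0.58. Emilin1 at D180 did so without control replicate 3 or exposed replicate 2, 3 or 4 of D0, or control or exposed replicate 3 or 4 of D180 (−0.58 to −0.55), and Loxl1 at D90 without exposed replicate 2 of D0 or 3 of D90 (−0.58). With the mean of both its probes, Emilin1 at D180 differed by −0.42 (adjusted p = 0.147 in limma). Vcan at D28 lost its adjusted p without control replicate 2, 4 or 5 or exposed replicate 3 or 5 of D0, or control replicate 1, 2 or 4 or exposed replicate 2, 4 or 5 of D28 (adjusted p 0.0531 to 0.0789).

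Over the 5 days 11 members were called at least once between exposed and control rats, beside 6.85% of all genes, and 40 never were, with changes from −0.56 to 0.45. The 11 are 21.6% of the 51. By the adjusted p 31 passed at least once, beside 19.4% of all genes, and 20 members never passed, among them Col1a1, Col3a1, Col1a2, Fn1, Lox, Tgfb1, the latent TGF-beta binding proteins Ltbp1 and Ltbp2, the proteoglycans Bgn and Lum, and Postn. Over time in control rats 12 members (23.5%) were called at least once, beside 9.37% of all genes, and 29 passed the adjusted p, beside 24.9%. The 22 that never passed it include Acta2, Fn1, Dcn, Tgfb1 and the type IV and type VI collagen chains.

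A wider list of 187 matrix and TGF-beta pathway genes outside the 52 had 171 tested. Between exposed and control rats 4 were called higher and 9 lower at D0, 6 and 7 for D3, 2 and 2 for D28, 1 and 1 for D90, and none for D180. These are 2.34% higher and 5.26% lower at D0, beside 2.77% and 1.51% of all genes, 3.51% and 4.09% at D3, beside 1.98% and 1.51%, 1.17% in each direction at D28, beside 0.861% and 0.468%, and 0.585% in each at D90, beside 0.246% and 0.135%. Tnn, or tenascin N, was well above background on all 5 exposed arrays and on no control array at D0, at 6.92 against 3.47, which makes it at least 6.92-fold higher when the control is set to the lowest signal counted as well above background. At D3, with 1 control array well above background, it was 6.87 against 3.58 (adjusted p = 5.21e-10 in limma). Col9a2, a chain of type IX collagen, was 9.21, 8.90, 9.14, 8.81 and 9.05 in controls and 10.25, 10.31, 10.12, 10.21 and 10.33 in exposed rats at D0. Its change was 1.22 (adjusted p = 9.59e-14), then 1.27, 0.86 and 0.59 at D3, D28 and D90, with no overlap at any of these. Of 8 cartilage markers none was called at those days. Sox9 and Col11a2 were well above background on all 50 arrays, Col9a1 on 39 and Col2a1 on 35. Matn1 was so on 13 arrays, Hapln1 on 8, and Acan and Lect1 on none.

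TGF-beta activation and signalling genes were called in both directions. Itgb8, an integrin chain that activates latent TGF-beta, was 1.12 higher at D0 and 0.91 higher at D3. At D0 Lrrc32, which docks latent TGF-beta on cells, changed by −1.04, and the BMP antagonist Grem1 by −0.95. Smad3, a TGF-beta signal transducer, was called higher at D3 (adjusted p = 0.0370 in limma) with 2 of 5 exposed arrays and no control array well above background. Most exposed arrays were thus not well above background either, and no size or bound is given for its change. Of the other called genes Tnxb (−0.98) was lower at D0, and Col4a4 (−0.73), Fras1 (−0.87) and Matn2 (−0.74) at D3. Among 15 other elastic fibre and crosslinking genes none was called at any day between exposed and control rats, and of 22 collagen maturation genes 1 was, P4ha2 at D0 (−0.74), named after its value was seen. Against the same control rats of D0, P4ha2 was also called lower in controls at D3 (−0.70), D28 (−0.69) and D90 (−0.67).

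Spon2, the matrix glycoprotein spondin 2, was set beside Eln after its values were seen. Like Eln it was over-expressed in control rats from D28 on, and in exposed rats higher at D3 and lower at D28 and D90. Unlike Eln it was already called higher in control rats at D3 (0.75, adjusted p = 0.00913 in limma). In control rats it averaged 8.15, 8.90, 10.62, 10.43 and 10.27 from D0 to D180, a change of 2.47 at D28 (adjusted p = 6.94e-13 in limma). Exposed rats were 0.71 higher at D3 and then lower, with changes of −1.06 (D28) and −0.90 (D90), and Spon2 averaged 9.68 in them at D180 without being called.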

How the data were processed

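Total RNA of the accessory lobe (Cy3) was hybridised to one-colour Agilent arrays, and the deposited scanner files hold the processed intensity (Agilent Feature Extraction 11.0.1.1 per the file headers), already corrected for background by the authors. A series matrix of the authors' quantile-normalized intensity was used as an alternative. Control spots were left out, spots of a probe were averaged, log2 intensities were quantile normalized, and probes above the 95th percentile of negative controls on at least 5 arrays were kept (29549 of 30367; 271 single values were missing). The probe with the highest mean signal stood for its gene, which gave 25208 genes. All 50 arrays in 10 groups entered 1 fit in limma 3.58.1 (R 4.3.3), with Benjamini-Hochberg adjustment and limits of 0.05 and 1.5-fold. The fit was tried on simulated data for the exposure comparison of D0. Noise there was independent between arrays with no slide effect, so it does not cover arrays that share a slide.

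The members and lists were chosen with earlier results of these data known. Values are given for each member called in an exposure comparison or interaction, the 3 largest called changes per control comparison, the 2 highest and 2 lowest changes per exposure comparison, and Col1a1, Col3a1, Col4a1, Eln, Lox, Fn1, Dcn, Tgfb1 and Acta2. Of the wider list, at most the 3 largest called changes per direction and day were named. Alternatives were 75th percentile scaling, normexp correction, the series matrix, other filters and probe rules, slide as a fixed or random block, own-day arrays, no fold limit, a replicate block, and leaving out each rat. Replicate numbers were not used to pair rats, since 8 of 25 control and exposed pairs with the same number had deviations correlated above 0.1. Of the 25 pairs 7 shared a slide. The main fit had no slide term, and with slide as a random block the correlation between arrays of a slide was 0.437. The number of arrays limits the precision. Some results on single genes of the wider list are not reported here.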

Additional observations from a re-analysis of the deposited data

Results flagged for a closer look

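In groups of 5 rats, a rat was singled out when its gap to the nearest of the others, divided by the range of its group, was above Dixon's critical value. This happened in 17 of 250 groups of the 25 named genes tested, and chance gives about 1 in 20. In control rats it was replicate 4 at D28 for Acta2 (0.727), and at D90 replicate 2 for Vcan (0.894) and Fbn1 (0.723) and replicate 1 for Emilin1 (0.739) and Tgfb3 (0.794). At D180 it was replicate 4 for Adamts9 (0.738), and replicate 1 for Col4a3 (0.874) and Tgfb1 (0.764). In exposed rats it was replicate 4 at D0 (0.828) and replicate 3 at D90 (0.843) for Thbs2, replicate 5 at D3 for Col3a1 (0.715), replicate 2 at D3 for Tgfb1 (0.824) and replicate 1 at D28 for Acta2 (0.877). At D180 it was replicate 4 for Mfap5 (0.715), replicate 2 for Col4a3 (0.789) and Tnc (0.779), and replicate 5 for Fn1 (0.798).

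The exposure effect at a later day differed from that at D0, by the interaction test in limma, for 15 of 204 pairs of gene and day. Every such contrast uses the same rats of D0, so the 15 are not independent. The difference in log2 change at D3 was 0.80 for Thbs2, where 0.678% of all genes were called. At D28 it was −0.70 for Cthrc1, 0.65 for Fbln5, 0.59 for Mfap5 and −0.86 for Vcan, beside 1.61% of all genes. At D90 it was −1.10 for Cthrc1, −1.17 for Eln, −0.64 for Loxl1, 0.60 for Mfap5, 0.67 for Tgfb3 and −0.89 for Vcan. The share of all genes called there was 2.17%. At D180 the difference was −0.88 for Cthrc1, −0.60 for Emilin1, −0.65 for Loxl1 and 0.73 for Mfap5, beside 2.24% of all genes.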

How the results depend on the processing

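Of 64 changes of single genes that were called, no alternative turned the sign. They kept the call in 636 of 691 values under other settings and in 744 of 830 values with 1 rat left out. Counts of called matrix genes moved by over 1.5 times as follows, and the cause was not tested. With normexp correction the 5 at D0 became 2, the 7 at D3 became 4, the 2 at D180 became 1, the 1 with an exposure effect that differed between D3 and D0 became 0, and the 4 for D28 became 1. In the series matrix these were 3 at D0, 4 at D3, and 0 and 2 for the differences of D3 and D28 from D0. Fewer of all genes were called there too. With normexp correction they fell from 1079 to 582 at D0, from 878 to 478 at D3 and from 82 to 51 at D180. For the differences of D3 and D28 from D0 they fell from 171 to 126 and from 405 to 292. In the series matrix all genes called were 663 at D0, 539 at D3, and 141 and 318 for these differences. With 75th percentile scaling D180 gave 1 matrix gene and the D3 difference 0, beside 78 and 183 of all genes. Fitted on the arrays of the days compared, D3 gave 4, D28 0, D180 1 and the D3 difference 0. Slide as a fixed or random block gave 2 for the D3 difference and 1 between D180 and D90 in controls, where none was called. With no fold limit the counts were 25 at D0, 16 at D3, 5 at D28, 34 in the mean over days, 2 and 7 for the differences of D3 and D180 from D0, and 14, 21, 14 and 16 in controls at D3, D28, D90 and D180 against D0. Leaving out 1 rat gave 4 to 7 at D0, 5 to 8 at D3, 2 at D28, 1 to 2 at D90, 0 to 1 at D180 and 1 in the mean. It gave 0 to 2, 2 to 5, 4 to 7 and 3 to 6 for the differences from D0, 7, 9 to 12, 6 to 9 and 5 to 7 in controls, and 0 between D180 and D90. With the replicate number as a block, which does not pair the rats (8 of 25 pairs correlated above 0.1, from −0.339 to 0.449), the counts were 5, 7, 2, 2, 2 and 1 for exposure, 1, 4, 6 and 4 for the differences, and 7, 11, 7, 5 and 0 in controls, equal to those without it. Under 75th percentile scaling 1157 of 1622 called genes of all genes were higher in controls at D90 and 1149 of 1553 at D180, against 818 of 1374 and 754 of 1388, while the matrix genes called were all higher in both. Slide as a fixed block was left out for D90 and D180 against D0 in controls, because only 1 array of another group joined their slides. A fit on own-day arrays was not run for the mean.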
